A study of Mus musculus with 6 samples.

Results

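The BCL2 family was examined through 10 of its genes, taken as the rows of the deposited expression table that carry the symbols Bcl2, Bcl2l1, Mcl1, Bcl2a1b, Bcl2a1d, Bak1, Bid, Bik, Bcl2l11 and Bmf. All 10 were found among 21899 genes, and all 10 passed the filter on low counts, which left 12599 genes for testing. The libraries were made from polyA RNA of the liver, and all mice were wild-type C57BL6J: 3 libraries come from 6 weeks on a methionine- and choline-sufficient diet (MCS) and 3 from the same time on a diet deficient in both nutrients (MCD), which is used to model metabolic dysfunction-associated steatohepatitis. The labels name no other allele or agent in either group, and give neither the age of the mice nor whether each library came from its own animal, so the p-values speak only of the spread among these libraries. The comparison asks how the transcripts of this family differ between the livers of mice on these diets.

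BCL2 family proteins decide whether the outer mitochondrial membrane is opened to release cytochrome c, the step that commits a cell to intrinsic apoptosis. Antiapoptotic members (BCL2, BCL-XL from Bcl2l1, MCL1 and A1 from the Bcl2a1 genes) hold the pore-forming effectors BAK and BAX in check, and BH3-only members (BID, BIK, BIM from Bcl2l11 and BMF) relieve that check or activate the effectors. Hepatocytes are known to depend on MCL1 and BCL-XL and to need BID for death receptor signals to reach mitochondria, whereas A1 is known mainly from leukocytes.

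Mouse chromosome 9 carries several near-identical A1 genes, and because reads can be divided among them, the stretch of sequence upstream of each is shown first. The 120 bases below start at the same shared 20 bases in every copy and lie upstream of the annotated start, as given by RefSeq for GRCm38.p6; capitals mark GAGGAAGTG, an element of the type bound by the myeloid factor PU.1, found by exact match on either strand. The positions are chr9:89199089-89199208 (plus strand) for Bcl2a1b, chr9:88731865-88731984 (minus strand) for Bcl2a1d, chr9:88956780-88956899 (plus strand) for Bcl2a1a and chr9:114329885-114330004 (plus strand) for Bcl2a1c.
Bcl2a1b: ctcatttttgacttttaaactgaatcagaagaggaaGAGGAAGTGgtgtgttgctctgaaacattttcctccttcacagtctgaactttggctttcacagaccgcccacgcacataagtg
Bcl2a1d: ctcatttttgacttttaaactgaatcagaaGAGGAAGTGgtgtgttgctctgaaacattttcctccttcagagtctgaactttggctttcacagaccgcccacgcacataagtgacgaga
Bcl2a1a: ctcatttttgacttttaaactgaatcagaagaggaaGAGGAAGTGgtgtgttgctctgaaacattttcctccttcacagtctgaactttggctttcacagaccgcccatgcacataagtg
Bcl2a1c: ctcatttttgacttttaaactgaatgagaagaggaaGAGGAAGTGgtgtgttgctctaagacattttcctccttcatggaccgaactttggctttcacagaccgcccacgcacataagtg

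In these stretches Bcl2a1a matched Bcl2a1b at 119 of 120 aligned positions, Bcl2a1b matched Bcl2a1d at 113 of 126 (gaps counted), and Bcl2a1b matched Bcl2a1c at 113 of 120. On the strand shown, Bcl2a1d holds 1 occurrence of GAGGAA where the other 3 copies hold 2. All 4 copies hold GAGGAAGTG, against 1.57% of the 32851 windows of 300 bases (250 before to 50 after a start) in the RefSeq table. Because the stretches are so alike, these 4 matches are not independent of each other. The shorter GAGGAA, which lies inside it, was in 28.3% of those windows. No other of the 10 genes had GAGGAAGTG in its windows, but Bik has no window and was not searched. A match of this kind is a description of the letters and not evidence of a bound site. The transcripts of Bcl2a1a, Bcl2a1b and Bcl2a1d are close copies too. In the GENCODE transcripts of the same build, Bcl2a1b and Bcl2a1d were identical at 93.9% of aligned positions and Bcl2a1a and Bcl2a1b at 97.9%. The annotated Bcl2a1c transcript is shorter (444 bases against 817 to 863) and matched the others at 49.5% to 52.4%, gaps counted. Of all 50-base windows, 57.6% in the Bcl2a1b transcript, 79.5% in Bcl2a1d, 69.0% in Bcl2a1a and 10.4% in Bcl2a1c also occurred exactly in another copy. The values of single A1 genes are therefore uncertain, and their sum is given beside them.

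Total counts per library ran from 16615469 to 21322771, so that 3 counts correspond to 0.104 to 0.227 counts-per-million (CPM, relative to library sizes scaled by TMM). Levels of single genes per library are given either as CPM, which serves to compare libraries, or as the deposited transcripts-per-million (TPM), which corrects for length and serves to compare genes. Differences between the diets are given on the log2 scale (MCD relative to MCS) with their SE, as estimated by the quasi-likelihood test of edgeR over all 12599 genes (n = 3 libraries per diet), with p adjusted by Benjamini and Hochberg over those genes. Hepatocyte markers were abundant in every library, with Alb between 670213 and 1587841 counts. Replicate 3 of both diets stood apart on the second principal component (−39.1 and −25.5, the others 9.73 to 32.5), and MCD replicate 3 was highest of its diet for 14 of 14 recruited macrophage, 10 of 10 stellate cell and 9 of 9 sinusoidal endothelial markers. MCS replicate 3 was likewise highest of its diet for 9 of 9 sinusoidal endothelial and 8 of 10 Kupffer cell markers, and for 5 of 14 and 6 of 10 of the recruited macrophage and stellate cell markers.

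Of the 10 genes, 6 rose on the MCD diet, 1 fell and 3 did not pass the test at an adjusted p under 0.05. Among all tested genes 14.8% were called as higher and 9.97% as lower. The median log2 fold change of the 10 was 0.48, against 0.01 over all tested genes. All 5 antiapoptotic genes rose: Bcl2a1b, Bcl2a1d, Bcl2, Mcl1 and Bcl2l1. Reads can be divided between Bcl2a1b and Bcl2a1d, so the calls of these 2 copies are not independent of each other. Of the 4 BH3-only genes, Bcl2l11 rose, Bmf fell, and Bid and Bik did not pass, nor did the effector Bak1. In CPM all 3 MCD libraries lay above all 3 MCS libraries for 6 genes (23.9% of all tested genes) and below them for 2 genes, Bmf and Bik (21.3% of all tested genes). In the authors' deposited table, 7 of the 10 had a false discovery rate under 0.05 and were higher (20.5% of all genes), and 0 were lower (1.31% of all genes). These last shares are over all 21899 genes, of which 5317 had 0 counts in every library. They are therefore not comparable with the shares of tested genes, and were not computed for the tested genes.

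Leaving out a library gave fewer calls over all genes, except for MCD replicate 2, whose omission gave more. On leaving out MCS replicate 1, then MCS replicate 2, then MCD replicate 1, 2 of the 10 rose each time (Bcl2a1b and Bcl2a1d), where 7.27%, 7.22% and 8.12% of all tested genes were called as higher. These 2 are the near-identical A1 copies, whose calls are not independent. Without MCS replicate 3, 3 of the 10 rose (11% of all tested genes), without MCD replicate 3, 4 rose (11.7%), and without MCD replicate 2, 6 rose (18.2%). Bmf fell in each of these 6 fits, where 3.33%, 3.05% and 6.95% of all tested genes were called as lower without MCS replicates 1 to 3 and 3.35%, 15.9% and 8.01% without MCD replicates 1 to 3. Without replicate 3 of both diets, 5 rose (14.6%) and 1 fell (12.2%), and with a block for the replicate number 6 rose (15.8%) and 1 fell (10.3%). At an adjusted p under 0.01, 2 rose (5.98%) and 1 fell (2.41%). With library size alone in place of TMM, 7 rose, Bak1 being added, and 0 fell, against 40.4% and 2.76% of all tested genes, so that this scaling moved the balance of the whole table. On the log2(TPM + 1) scale these numbers were again 7 (42.9%) and 0 (2.13%), and on the log2(TPM + 0.1) scale 7 (45.2%) and 0 (2.24%).

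**Figure D1:**
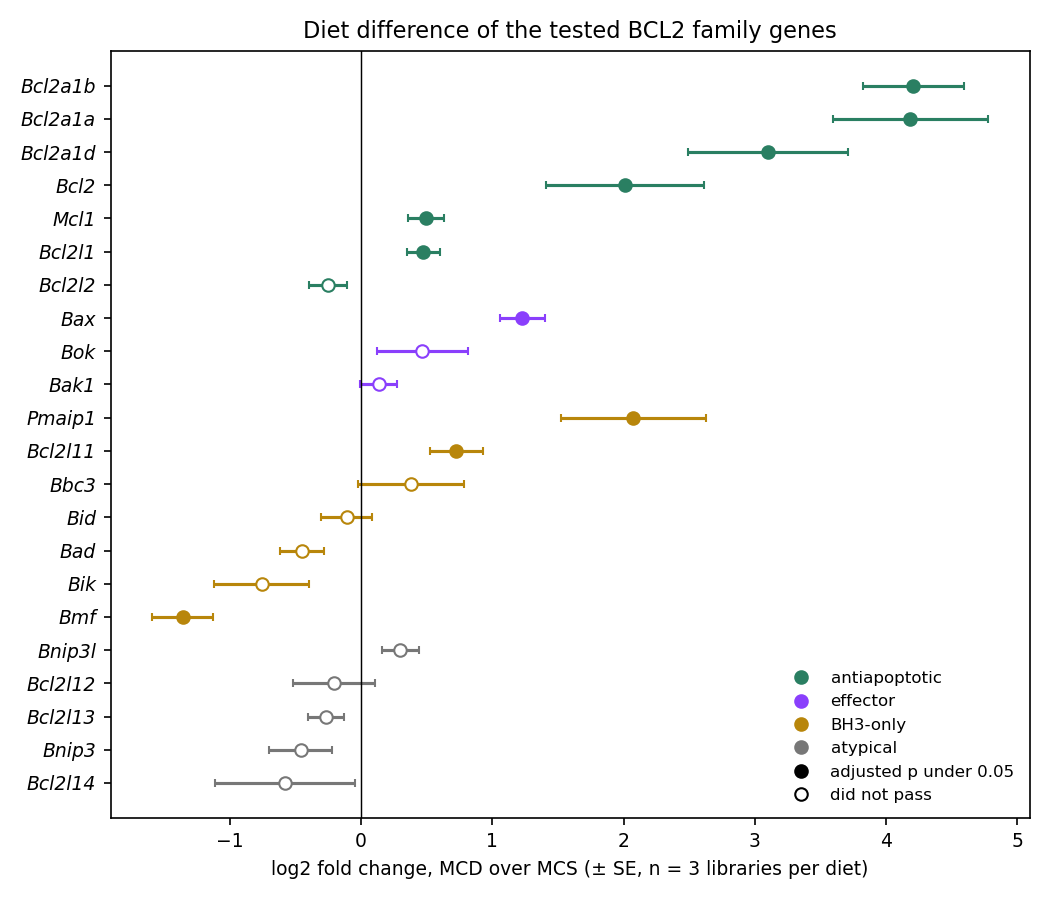
Log2 fold change of MCD over MCS (horizontal axis, ± SE, n = 3 libraries per diet) for the 22 BCL2 family genes that could be tested, grouped by role; filled points passed at an adjusted p under 0.05. The A1 copies lie farthest to the right, Bcl2l1 and Mcl1 passed at under 0.5, and Bmf is the only filled point left of 0.

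The A1 genes showed the largest differences of the family. Bcl2a1b (ENSMUSG00000089929) had 11, 10 and 17 counts in MCS replicates 1 to 3 and 278, 204 and 619 counts in MCD replicates 1 to 3. Its CPM of 0.633, 0.756 and 0.938 on MCS and 12.5, 9.23 and 21.6 on MCD left a wide gap between the diets, with MCD replicate 3 the highest library. Bcl2a1b rose 18.5-fold (log2 fold change 4.21 ± 0.39, adjusted p = 0.000424, edgeR).

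Bcl2a1d (ENSMUSG00000099974) had 7, 1 and 14 counts on MCS and 88, 55 and 139 counts on MCD. The MCS libraries, at 0.403, 0.0756 and 0.772 CPM, were far from each other but all below the MCD libraries at 3.96, 2.49 and 4.84 CPM. Bcl2a1d rose 8.57-fold (3.10 ± 0.61, adjusted p = 0.00882, edgeR). The difference was 3.85 (log2) when MCS replicate 3 was left out and 2.65 when MCS replicate 2 was. Without MCS replicate 1 it was 3.04 (adjusted p = 0.0422, edgeR). The ratio of Bcl2a1b to Bcl2a1d in TPM was 3.34 to 4.71 in the MCD libraries. In the MCS libraries, which held few reads of either, it was 1.66, 10.6 and 1.27.

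The other copies behaved in the same direction where they could be tested. Bcl2a1a had 3, 1 and 1 counts on MCS and 43, 35 and 68 on MCD, and rose by 4.18 ± 0.59 (log2, adjusted p = 0.00228, edgeR). Bcl2a1c was too low to test, with 0 counts in each MCS library and 1, 5 and 1 counts on MCD. Summed over the 4 copies, A1 transcripts were at 1.21, 0.907 and 1.77 CPM on MCS and 18.4, 13.5 and 28.8 CPM on MCD. The sum rose 15.4-fold (3.94 ± 0.36, adjusted p = 0.000422, edgeR), so the difference does not turn on how reads were split between copies. The sum and both A1 members passed in 6 of 6 fits that left out 1 library (log2 fold change of the sum 3.60 to 4.23).

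Bcl2 (ENSMUSG00000057329), the founding antiapoptotic gene and a gene of lymphoid cells in particular, was the lowest of the 10 in mean TPM on either diet. It had 4, 15 and 21 counts on MCS and 68, 44 and 145 counts on MCD, which is 0.230, 1.13 and 1.16 CPM against 3.06, 1.99 and 5.05 CPM. The diets did not overlap, and within each diet the lowest and highest library differed by more than 2-fold. Bcl2 rose 4.03-fold (2.01 ± 0.60, adjusted p = 0.0393, edgeR). It passed in 1 of 6 fits with a library left out, the one without MCD replicate 2, and the other 5 gave adjusted p = 0.0624 to 0.0925 in edgeR; the difference was 1.54 (log2) when MCS replicate 1 was left out and 1.59 when MCD replicate 3 was. It did not pass by limma-voom (adjusted p = 0.0571).

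Mcl1 (ENSMUSG00000038612), a short-lived guard against BAK that hepatocytes depend on, was the most abundant of the 10 in every library. Its CPM was 97.0, 93.5 and 105.6 on MCS and 142, 128 and 147 on MCD, with no overlap and a spread within each diet smaller than the gap between them. Mcl1 rose 1.41-fold (0.49 ± 0.14, adjusted p = 0.0334, edgeR). The test passed without MCD replicate 2 or MCD replicate 3 and not without any of the other 4 libraries (adjusted p = 0.0558 to 0.150, edgeR), nor without a count filter (adjusted p = 0.0508, edgeR).

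Bcl2l1 (ENSMUSG00000007659), whose long form is BCL-XL, was second in TPM in every library except MCD replicate 3, where Bcl2a1b exceeded it. The table gives 1 value per gene, so its antiapoptotic long and proapoptotic short splice forms were not separated. Its CPM was 31.6, 34.6 and 37.95 on MCS and 51.3, 48.5 and 44.9 on MCD, again without overlap. Bcl2l1 rose 1.39-fold (0.48 ± 0.13, adjusted p = 0.0286, edgeR), and the call was lost on leaving out replicate 1 or 2 of MCS or replicate 1 of MCD (adjusted p = 0.113 to 0.136, edgeR). Mcl1 and Bcl2l1 kept nearly the same proportion to each other: the TPM ratio of Mcl1 to Bcl2l1 was 1.96 ± 0.0655 on MCS and 2.01 ± 0.231 on MCD (SD, n = 3). Per-library scaling cancels in such a ratio.

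**Figure D2:**
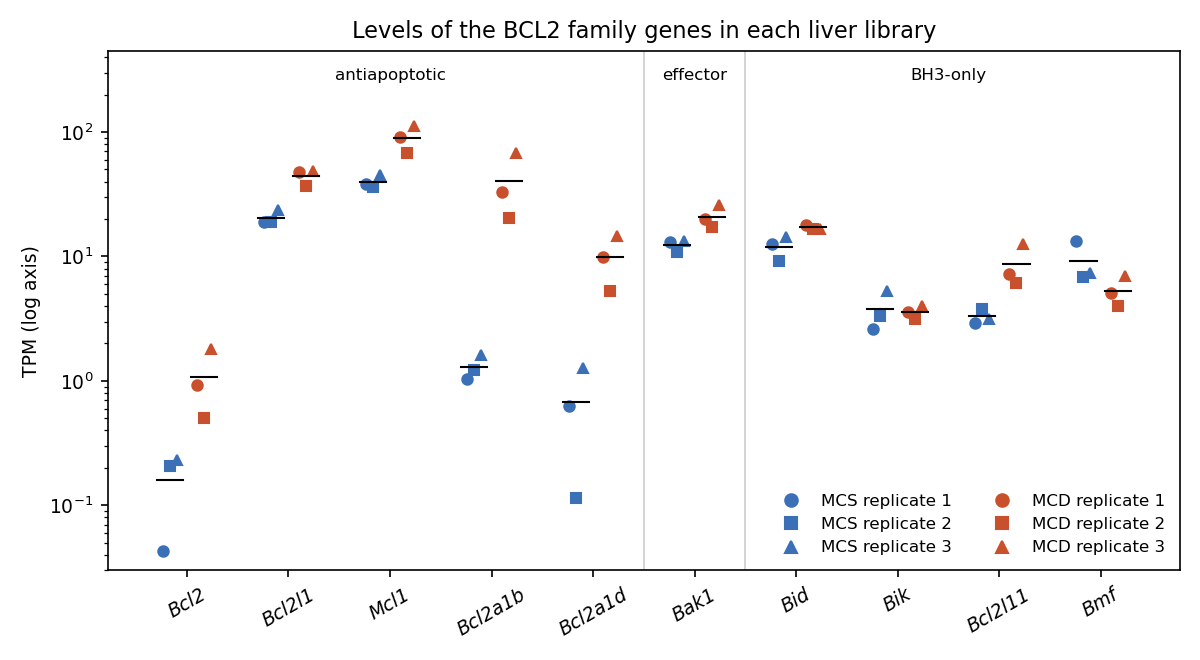
TPM (log axis) of the 10 genes in each library, with MCS in blue, MCD in red, 1 marker shape per replicate number and a black line at the mean of each diet. Bcl2a1b sits between 1.05 and 1.61 TPM on MCS and between 20.5 and 68.3 TPM on MCD, while Mcl1 is at the top on both diets and Bcl2 is the lowest on average.

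In TPM, which is comparable between genes, the order on MCS was Mcl1 (39.9 ± 4.91, SD, n = 3), Bcl2l1 (20.4 ± 2.67), Bak1 (12.4 ± 1.26), Bid (12.0 ± 2.68), Bmf (9.21 ± 3.66), Bik (3.76 ± 1.40), Bcl2l11 (3.30 ± 0.448), Bcl2a1b (1.29 ± 0.291), Bcl2a1d (0.673 ± 0.581) and Bcl2 (0.161 ± 0.103). The neighbours Bak1, Bid and Bmf, and likewise Bik and Bcl2l11, did not differ beyond their spread. On MCD the order was Mcl1 (89.9 ± 21.5), Bcl2l1 (44.5 ± 6.65), Bcl2a1b (40.7 ± 24.8), Bak1 (20.9 ± 4.41), Bid (17.1 ± 0.674), Bcl2a1d (9.91 ± 4.61), Bcl2l11 (8.64 ± 3.48), Bmf (5.32 ± 1.47), Bik (3.58 ± 0.440) and Bcl2 (1.08 ± 0.672). Bcl2a1b thus stood at rank 8 of 10 on MCS and at rank 3 on MCD, within the spread of Bcl2l1.

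A1 therefore took up a larger part of the antiapoptotic transcripts. Over the TPM of Mcl1, Bcl2l1, Bcl2, Bcl2l2, Bcl2l10 and the 4 A1 copies, the A1 share was 2.96%, 2.29% and 3.81% in the MCS libraries and 24.6%, 21.0% and 34.5% in the MCD libraries. The Mcl1 share was 57.4% ± 0.606 on MCS and 45.3% ± 2.61 on MCD (SD, n = 3). Bcl2l1 held 29.4% ± 0.770 and 22.8% ± 3.70, and Bcl2l2 held 9.90% ± 1.38 and 4.67% ± 0.862, so the shares of these 3 genes were smaller on MCD. The mean TPM of each was higher on MCD, but for Bcl2l2 the direction depends on the scaling: in CPM every MCD library (12.96 to 15.5) lay below every MCS library (15.9 to 18.5). Set against Mcl1 alone, the A1 sum was 0.0525 ± 0.0129 of its TPM on MCS and 0.598 ± 0.193 on MCD.

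Bak1 (ENSMUSG00000057789), the effector that resides at the mitochondrial membrane and is guarded by MCL1 and BCL-XL, gave 18.8, 17.1 and 16.3 CPM on MCS and 17.6, 18.5 and 21.1 CPM on MCD. The diets overlapped in CPM, and the log2 fold change of 0.13 ± 0.14 did not pass (adjusted p = 0.515, edgeR). In TPM every MCD library (17.2 to 25.8) lay above every MCS library (10.9 to 13.2). Bax, the cytosolic effector and not among the 10, had 7.65, 6.95 and 8.33 CPM on MCS and 20.7, 17.1 and 15.9 CPM on MCD, and rose 2.34-fold (1.23 ± 0.17, adjusted p = 0.00217, edgeR; passed in 6 of 6 fits with a library left out). The TPM ratio of Bax to Bak1 was 1.05, 0.942 and 1.02 in the MCS libraries and 2.59, 2.04 and 1.79 in the MCD libraries, without overlap. For Bok, a related effector gene, the difference of 0.47 ± 0.35 (log2) did not pass (adjusted p = 0.351, edgeR).

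Among the BH3-only genes, Bmf and Bcl2l11 moved in opposite directions. Bmf (ENSMUSG00000040093), known as a sensor of lost attachment and cytoskeletal damage, was at 32.7, 20.8 and 18.3 CPM on MCS and at 8.36, 8.82 and 10.8 CPM on MCD. MCS replicate 1 was the highest library, and the lowest MCS library was still above every MCD library. Bmf fell 2.56-fold (−1.36 ± 0.23, adjusted p = 0.00518, edgeR) and passed in 6 of 6 fits with a library left out (log2 fold change −1.53 to −1.07). The call depends on the scaling. With library size alone the log2 fold change was −0.78 (adjusted p = 0.0508, edgeR), and in the authors' deposited table it was −0.79 with a false discovery rate of 0.0769. In TPM, MCD replicate 3 (6.91) lay above MCS replicate 2 (6.83).

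Bcl2l11 (ENSMUSG00000027381) encodes BIM, an activator of the effectors that is known to be induced by FOXO factors and by endoplasmic reticulum stress. It was at 9.89, 12.2 and 9.10 CPM on MCS and 14.97, 14.8 and 21.6 CPM on MCD, with no overlap and with MCD replicate 3 standing above the other libraries. Bcl2l11 rose 1.65-fold (0.72 ± 0.20, adjusted p = 0.0319, edgeR). It passed in 1 of 6 fits with a library left out, the one without MCD replicate 2, and the others gave adjusted p = 0.0572 to 0.109 (edgeR). Its log2 fold change was 0.53 without MCD replicate 3, and 0.44 without replicate 3 of both diets (adjusted p = 0.0910, edgeR).

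The order of these genes differed between the diets in every library. The TPM ratio of Bcl2l11 to Bmf, from which scaling cancels, was 0.219, 0.557 and 0.428 in the MCS libraries and 1.44, 1.51 and 1.82 in the MCD libraries. Relative to Mcl1, Bmf was at 0.234 ± 0.102 on MCS and 0.0589 ± 0.00323 on MCD, whereas Bcl2l11 was at 0.0840 ± 0.0191 and 0.0942 ± 0.0172, which overlap (SD, n = 3). One of the RefSeq windows of Bcl2l11 holds GTAAACA, the core letters of a FOXO element, 227 bases before the annotated start. It is shown because Foxo1 and Foxo3 were lower on MCD with TMM scaling, which depends on the scaling (values below). It lies in the stretch chr2:128125791-128125850 (plus strand, GRCm38.p6), with the match in capitals.
Bcl2l11: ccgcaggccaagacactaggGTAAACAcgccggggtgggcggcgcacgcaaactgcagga

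GTAAACA was in 3.65% of all RefSeq windows and in those of no other gene of the 10 that has a window (9 of the 10 have one). The NF-kappaB consensus, searched by name in its usual degenerate form on both strands, was in 8.46% of all windows and in windows of Bcl2l1 and Bmf. It had no match in the A1 windows, which says only that these letters are not in those 300 bases.

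Bid (ENSMUSG00000004446), which caspase 8 cleaves to link death receptors to mitochondria, gave 19.9, 15.2 and 21.9 CPM on MCS and 18.0, 20.8 and 14.1 CPM on MCD. The diets overlapped in CPM, with a log2 fold change of −0.11 ± 0.19 (adjusted p = 0.707, edgeR). This value turned to 0.41 with library size alone and to 0.03 without MCD replicate 3. In TPM every MCD library (16.7 to 17.9) lay above every MCS library (9.13 to 14.4). Bik (ENSMUSG00000016758), a BH3-only gene of the endoplasmic reticulum, was low at 2.01, 2.42 and 3.53 CPM on MCS and 1.57, 1.67 and 1.46 CPM on MCD. Every MCD library was below every MCS library, but the log2 fold change of −0.76 ± 0.36 did not pass (adjusted p = 0.157, edgeR). In TPM the diets overlapped for Bik, at 2.63 to 5.33 and 3.14 to 4.02.

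**Figure D3:**
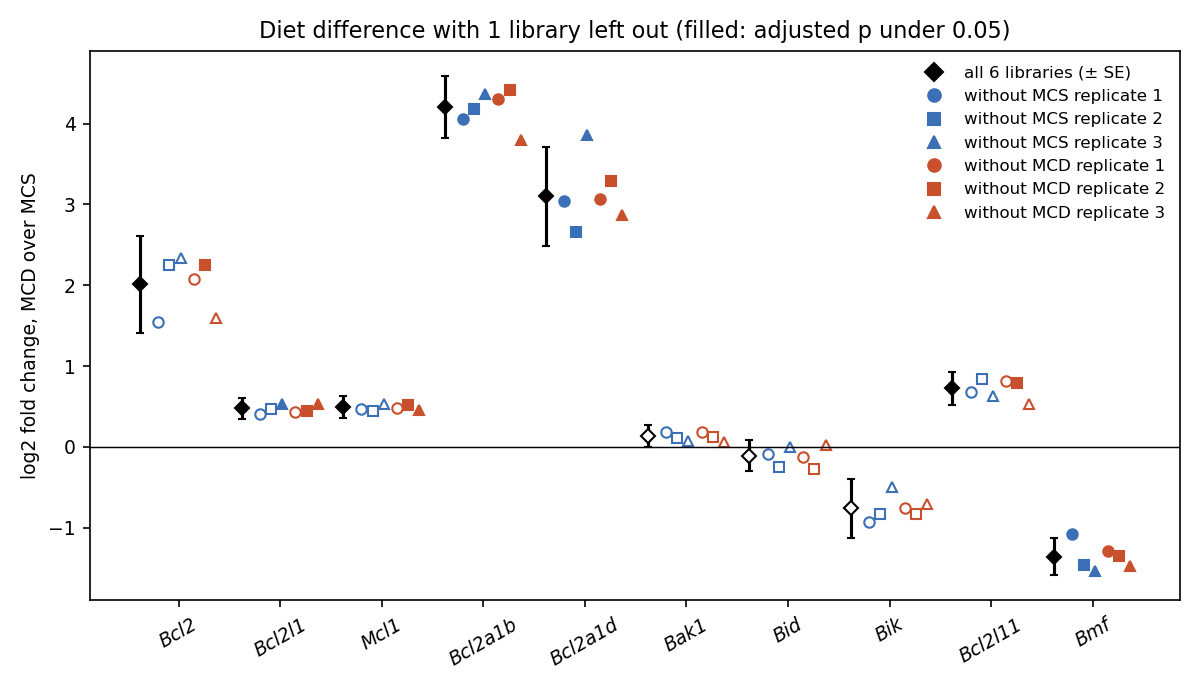
Log2 fold change of MCD over MCS for each of the 10 genes with all 6 libraries (black diamonds, ± SE) and with 1 library left out (coloured, 1 marker per library); filled markers passed at an adjusted p under 0.05. Bcl2a1b, Bcl2a1d and Bmf are filled throughout, while Bcl2, Mcl1, Bcl2l1 and Bcl2l11 keep their direction but pass in 1, 2, 3 and 1 of the 6 fits.

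Beyond the 10 genes, the table holds 16 other BCL2 family genes, of which 12 could be tested; 3 of them rose (Bcl2a1a, Bax and Pmaip1), 0 fell and 9 did not pass, with a median log2 fold change of 0.05. Pmaip1 encodes NOXA, a BH3-only inhibitor of MCL1 and A1. It had 14, 4 and 7 counts on MCS and 41, 30 and 92 on MCD, and rose 4.21-fold (2.07 ± 0.55, adjusted p = 0.0269, edgeR), passing in 2 of 6 fits with a library left out (adjusted p = 0.0698 to 0.1002 in the others, edgeR). Bbc3, which encodes the p53 target PUMA, differed by 0.38 ± 0.40 on the log2 scale, and Bad, a BH3-only gene under control of survival kinases, by −0.45 ± 0.17, and neither passed (adjusted p = 0.524 and 0.0793, edgeR). Bad passed without MCD replicate 2 (−0.64, adjusted p = 0.0163, edgeR), and Bbc3 passed on the log2(TPM + 1) scale (0.90, adjusted p = 0.0304, limma). Bcl2l2, which encodes BCL-W, had −0.25 ± 0.15 (adjusted p = 0.227, edgeR). The atypical genes Bcl2l12, Bcl2l13, Bcl2l14, Bnip3 and Bnip3l had log2 fold changes of −0.58 to 0.30, and 0 of 5 passed. Of these, Bnip3l, a receptor for removal of mitochondria, passed with library size alone (0.87, adjusted p = 0.0116, edgeR), and Bnip3 passed without MCD replicate 2 (−0.74, adjusted p = 0.0235, edgeR). Bcl2l10, Hrk and Bcl2l15 had at most 4 counts in any library and were not tested.

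Genes that act downstream of the family at mitochondria were examined next. Of 17 tested, 4 rose, 1 fell and 12 did not pass (14.8% of all tested genes were called as higher and 9.97% as lower), with a median log2 fold change of 0.00. Apaf1, the scaffold of the apoptosome, rose by 2.09 ± 0.47 (adjusted p = 0.0143, edgeR; adjusted p = 0.0546 and 0.0622 without MCS replicate 2 and MCS replicate 1; adjusted p = 0.0698 by limma-voom). Also among those that rose were the inhibitor of apoptosis genes Birc5 and Birc2. Birc5, which encodes the mitotic protein survivin, rose by 3.46 ± 0.49 (adjusted p = 0.00228, edgeR). It had few reads on MCS, at 5, 2 and 3 counts against 49, 46 and 75 on MCD. Birc2 rose by 0.74 ± 0.21 (adjusted p = 0.0364, edgeR) and passed in 2 of 6 fits with a library left out. Endog, a mitochondrial nuclease, fell by 0.84 on the log2 scale (adjusted p = 0.0187, edgeR), passing in 2 of 6 such fits and not with library size alone (−0.33, adjusted p = 0.130, edgeR). Cytochrome c (Cycs), Casp9, Diablo and the VDAC channel genes had log2 fold changes between −0.26 and 0.00.

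Of 10 tested genes of the death receptor route, which reaches mitochondria through BID, 1 rose and 9 did not pass (median 0.13). Over all tested genes, 14.8% were called as higher. The TRAIL receptor Tnfrsf10b rose from 0.0240, 0.188 and 0.0750 TPM on MCS to 2.34, 0.698 and 1.70 TPM on MCD. It had 1, 6 and 3 counts on MCS and 76, 27 and 60 on MCD. Its log2 fold change was 3.36 ± 0.71 (adjusted p = 0.0119, edgeR). With libraries left out this ranged from 2.88 to 4.24, the highest being without MCS replicate 2. Tnfrsf10b did not pass without MCD replicate 1 (adjusted p = 0.0551, edgeR). Neither the receptor gene Fas (0.10, adjusted p = 0.700, edgeR) nor Casp8, whose product cleaves BID (0.28, adjusted p = 0.127, edgeR), passed.

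Transcription factors known to act on genes of the family were split. Of 13 tested, 5 rose (Relb, Spi1, Nfkb2, Nfkb1 and E2f1), 2 fell (Foxo1 and Foxo3) and 6 did not pass, with a median of 0.41. The shares over all tested genes were 14.8% called as higher and 9.97% as lower. The NF-kappaB subunit genes Relb and Nfkb2 rose by 2.67 ± 0.28 and 1.19 ± 0.16 (adjusted p = 0.000636 and 0.00215, edgeR), and Spi1, which encodes PU.1, by 1.86 ± 0.25 (adjusted p = 0.00172, edgeR). Foxo3 fell by 0.54 on the log2 scale (adjusted p = 0.0363, edgeR), but its mean TPM was 16.7 on MCS and 18.4 on MCD. Foxo1, an inducer of Bcl2l11, fell by 0.76 on the log2 scale (adjusted p = 0.00606, edgeR). Foxo1 did not pass with library size alone (−0.22, adjusted p = 0.144, edgeR), and its mean TPM was 10.1 on MCS and 9.46 on MCD. Trp53 and Ddit3, which encode p53 and CHOP, did not pass (0.22 and 0.52, adjusted p = 0.248 and 0.240, edgeR). Of 10 tested kinases, ligases and partners of the family's proteins, 1 rose, against 14.8% of all tested genes, and 9 did not pass (median 0.08). The gene that rose was Dynll1, a dynein light chain that binds BIM, with 0.74 ± 0.24 (adjusted p = 0.0485, edgeR). Dynll1 passed in 1 of 6 fits with a library left out.

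In the authors' deposited table, whose fold changes are ratios of mean TPM, the log2 fold changes of the 10 were all above those given here. They were 4.98 for Bcl2a1b, 3.88 for Bcl2a1d, 2.75 for Bcl2, 1.39 for Bcl2l11, 1.17 for Mcl1, 1.12 for Bcl2l1 and 0.76 for Bak1, with false discovery rates of 2.52e-22, 8.07e-07, 0.000318, 0.000252, 0.000256, 0.000251 and 0.0442. Bid and Bik, at 0.51 and −0.07 in the authors' deposited table, had false discovery rates of 0.302 and 0.818. Bcl2a1b, Bcl2a1d and Bcl2 had the largest differences of the 10 in both analyses, and the next was Bmf by edgeR and Bcl2l11 in the authors' deposited table.

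In the annotation deposited with the table, 8 of the 10 genes belong to the KEGG pathway Apoptosis, all but Bik and Bmf. Without any family gene that pathway had 109 tested genes, of which 31 rose, 7 fell and 71 did not pass, with a median log2 fold change of 0.28. Over all tested genes, 14.8% were called as higher and 9.97% as lower.

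In bulk tissue, more cells of a type and more RNA per cell cannot be told apart, and markers of several cell types moved with the A1 genes. For the counts of all marker lists below, the shares over all tested genes were 14.8% called as higher and 9.97% as lower. All 14 recruited macrophage markers rose, Lyz2 being the highest of them in mean TPM on either diet, and their summed CPM was 264 to 297 in the MCS libraries and 1671 to 4346 in the MCD libraries. In the MCD libraries the A1 sum ran from replicate 3 over replicate 1 to replicate 2, and so did the sums of the recruited macrophage, neutrophil, T and NK cell, B and plasma cell, dendritic cell, stellate cell, sinusoidal endothelial and cholangiocyte lists, so the order is not particular to macrophage markers. The Kupffer cell list, with 3 of 10 genes up, 3 down and 4 not passing, summed to 464 to 584 CPM on MCS and 580 to 948 CPM on MCD. Of 12 neutrophil markers 5 were tested and 2 rose, Csf3r and Mmp8, and the list summed to 4.68 to 6.01 CPM on MCS and 8.05 to 29.0 CPM on MCD. Ly6g had 0 counts in every MCD library, and Ngp, Camp and Elane had at most 2 counts in any of them. On MCS these genes had at most 6 counts in any library. Other markers of the list went the other way. Cxcr2, too low to test, had 0, 3 and 4 counts on MCS and 14, 6 and 49 on MCD. S100a8, S100a9 and Mmp9 did not pass but had 81, 129 and 104 counts in MCD replicate 3. Retnlg, not tested, had 59 counts there.

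Lymphoid and dendritic markers were low. The T and NK cell list had 9 tested genes, 3 of which rose (summed 4.54 to 6.62 and 7.65 to 18.6 CPM for all 11); of 3 tested B and plasma cell markers 1 rose (3.55 to 8.61 and 7.60 to 17.9 CPM for all 7), and of 5 tested dendritic cell markers 2 rose (5.81 to 8.46 and 8.19 to 19.4 CPM for all 7). Stellate cell markers, 4 of 10 of which rose, summed to 160 to 287 and 342 to 1545 CPM, and cholangiocyte markers, 6 of 7 of which rose, to 41.1 to 65.4 and 194 to 567 CPM; Spp1, a gene of that list, is also on the recruited macrophage list. Sinusoidal endothelial markers, 0 of 9 of which passed, summed to 120 to 465 and 78.6 to 403 CPM. Of 11 hepatocyte markers 3 fell and 8 did not pass, and their sum was 98792 to 122947 CPM on MCS and 62496 to 103843 CPM on MCD, lowest in MCD replicate 3. The part of these cell types in the differences of Bcl2a1b, Bcl2a1d, Bcl2, Bcl2l11 and Bmf was not tested.

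**Figure D4:**
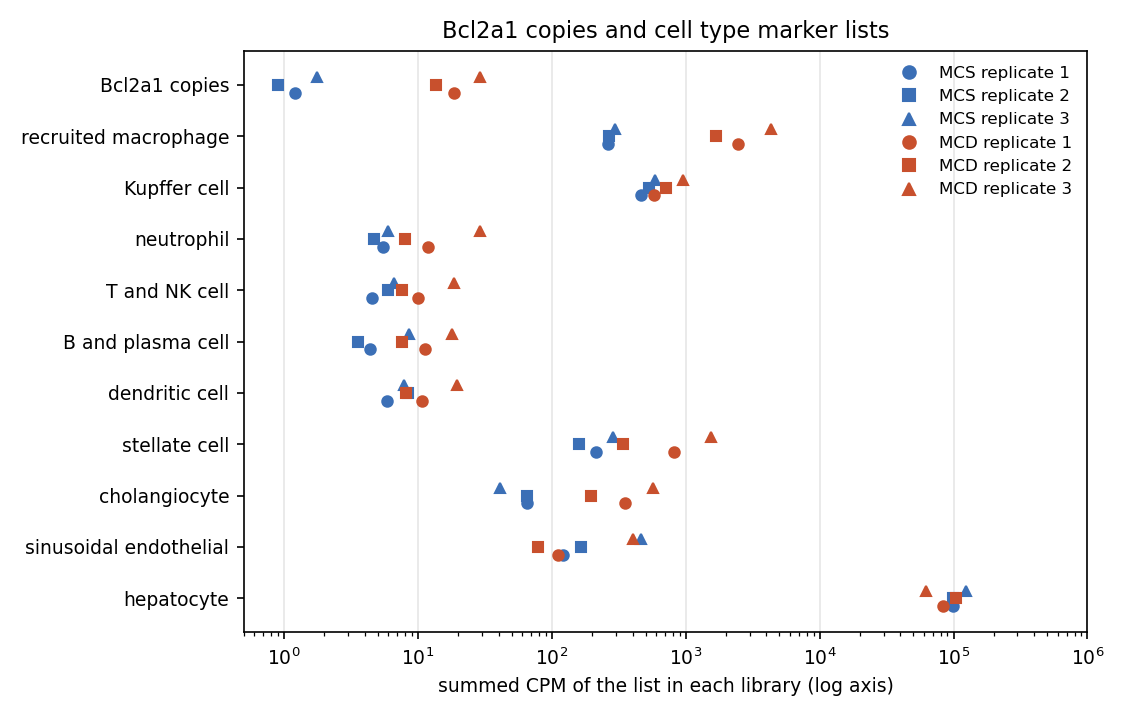
Summed CPM (log axis) of the 4 A1 copies and of each cell type marker list in each library, with MCS in blue, MCD in red and 1 marker shape per replicate number. The A1 copies and the recruited macrophage, neutrophil, T and NK cell, stellate cell and cholangiocyte lists separate the diets, and the Kupffer cell, dendritic cell, B and plasma cell, sinusoidal endothelial and hepatocyte lists overlap.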

How the data were processed

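For every gene and each of the 6 liver libraries, the deposited table holds, per the file headers, counts and TPM beside the authors' mean TPM, log2 fold change, p-value and FDR. The submitters' processing notes list the build GRCm39 and, without saying what each was used for, RSEM, StringTie 1.3.1, HISAT2 2.1.0, Bowtie2 2.2.8 and fastp 0.18.0. The deposited counts were treated as rounded estimated counts: all are whole, yet in 64 entries TPM is above 0 where the count is 0. TPM was scaled by the authors to the same total per library. The authors' log2 fold change compares their mean TPM, and the sources used here do not give their test.

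Counts were tested with edgeR 4.0.16 in R 4.3.3 (filterByExpr with a minimum count of 10, TMM, robust quasi-likelihood fit with diet as its only term). Alternatives were DESeq2 1.42.0, limma 3.58.1 (voom, or log2 TPM with a pseudocount of 1 or 0.1), other scalings and filters, a replicate block and leaving out libraries. The scripts were tested on simulated data. Replicates of a diet differed by more than counting noise (lowest chi-square over its degrees of freedom 14.5). Same-numbered libraries of the diets were not taken as pairs.

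The genes, lists and rule for naming genes were chosen with earlier results of these data known. The rule names all family genes and, for each other pathway list, by lowest p, 3 called genes in its main direction and 1 in the other. Nfkb1, E2f1 and Foxo3, genes given as not passing, and single markers beyond the 2 most abundant of a list, were named after their values were seen. RefSeq windows and GENCODE transcripts are of GRCm38, not the build of the counts. One gene of the mitochondrial list that rose is counted but not reported here. The hepatocyte marker Tf was not matched by that symbol.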

Additional observations from a re-analysis of the deposited data

How the results depend on the processing

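The direction of all 7 called members held in every alternative run, and Bcl2a1b, Bcl2a1d and the A1 sum passed in all of them (log2 fold change of the sum 3.60 to 4.57). With a replicate block 3283 genes were called, 6 members rose and 1 fell, and Dynll1 did not pass (adjusted p = 0.0685, edgeR). The block was not taken as a paired analysis, since the labels state no pairing. Same-numbered libraries correlated at 0.06, 0.15 and 0.25 in their deviations. MCS replicates 2 and 3 correlated best with the same-numbered MCD library, and MCS replicate 1 with MCD replicate 2 (0.13). Such correlations cannot decide whether the libraries were paired. Genes called numbered 3117, and 5443 with library size alone, 5669 and 5974 on the log2(TPM + 1) and log2(TPM + 0.1) scales, 1058 at adjusted p under 0.01, and 1347 to 4435 with 1 library left out. Members that rose numbered 6, and 2 at adjusted p under 0.01 and 2 to 6 with 1 library left out (2 on leaving out replicate 1 or 2 of MCS or replicate 1 of MCD). Bmf was called in every setting but library size alone and either TPM scale, where members that fell numbered 0. Those settings move the median of all genes to 0.57, 0.53 and 0.65, and the share of calls that rose from 59.7% to 93.6%, 95.3% and 95.3%.

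Genes whose direction turned there did not pass with TMM. With library size alone the log2 fold changes were 0.41 for Bid, 0.29 for Bcl2l2, 0.081 for Bad, 0.31 for Bcl2l12, 0.28 for Bcl2l13, 0.031 for Bcl2l14 and 0.050 for Bnip3. On the log2(TPM + 1) scale they were 0.50, 0.36, 0.36, 0.37, 0.53, 0.092 and 0.18, and on the log2(TPM + 0.1) scale 0.53, 0.40, 0.38, 0.43, 0.55, 0.11 and 0.18, in the same order. Bak1 passed in these settings (0.70 to 0.74). With 1 library left out, Bid ranged from −0.27 to 0.028 (without MCD replicate 3) and Bbc3 from −0.023 (without MCD replicate 2) to 0.64. Bid turned to 0.14 without replicate 3 of both diets, a setting chosen after seeing the data in which Bcl2l12 turned to 0.072 and 5 members rose. The cause of these turns was not tested. Depth limits Bcl2 and the A1 copies on MCS, where Bcl2 had 4 to 21 counts per library and each A1 copy 0 to 17. Other genes named as rising were also low there. Birc5 had 5, 2 and 3 counts on MCS, Tnfrsf10b 1, 6 and 3, and Pmaip1 14, 4 and 7.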
